A study of Arabidopsis thaliana with 12 samples.

Results

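The 9 genes described here encode the enzymes that make abscisic acid (ABA), the hormone of drought and seed dormancy, from xanthophyll pigments in Arabidopsis thaliana. They were chosen by name and locus and make up 9 of the 32833 loci listed for each library: ABA1, ABA4, NCED2, NCED3, NCED5, NCED9, ABA2, AAO3 and ABA3. Transcript levels come from RNA sequencing of 10-day-old seedlings raised in long days and treated for 3 h, in 4 groups of 3 biological replicates. A pair of groups stayed in white light: mock-treated seedlings of Col-0, the common laboratory wild type, and Col-0 seedlings given 50 µM ABA. The other pair, Col-0 and uvr8, received white light supplemented with 5 µmol m-2 s-1 of UV-B and, as the titles' word mock says, no ABA. The uvr8 plants carry a mutation in UVR8, which encodes a photoreceptor for UV-B; the labels do not name the allele. The treatment label of the UV-B libraries names white light alone as well as UV-B, so their light was taken from the sample titles. White-light uvr8 libraries were not analysed here, so the effects of genotype and of UV-B in that group cannot be told apart.

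ABA is built from carotenoids inside plastids and finished in the cytosol. ABA1, a zeaxanthin epoxidase, turns zeaxanthin into violaxanthin, and also serves the xanthophyll cycle that protects leaves from excess light. ABA4 is needed to make neoxanthin. The 9-cis-epoxycarotenoid dioxygenases (NCED) then cut a 9-cis-epoxycarotenoid to release xanthoxin, the step regarded as limiting, with NCED3 as the main drought-induced enzyme of leaves. In the cytosol the short-chain dehydrogenase ABA2 converts xanthoxin to abscisic aldehyde, and the aldehyde oxidase AAO3 oxidises the aldehyde to ABA. ABA3 is the sulfurase that activates the molybdenum cofactor AAO3 requires.

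All coordinates are from the RefSeq annotation of TAIR10.1. ABA1 (AT5G67030) lies on the minus strand of chromosome 5 at 26753469 to 26757402 and has 16 exons. ABA4 (AT1G67080) lies on the minus strand of chromosome 1 at 25045151 to 25047103. The 4 NCED genes each consist of a single exon: NCED2 (AT4G18350) on chromosome 4 at 10142255 to 10144646, NCED3 (AT3G14440) on chromosome 3 at 4831286 to 4834015, and NCED5 (AT1G30100) and NCED9 (AT1G78390) on chromosome 1 at 10571310 to 10573365 and 29490705 to 29492875. ABA2 (AT1G52340) and ABA3 (AT1G16540) are also on chromosome 1, at 19489794 to 19491650 and 5659370 to 5665488, and AAO3 (AT2G27150) is on chromosome 2 at 11601727 to 11608450. Among the NCED transcripts the closest pairs were NCED3 with NCED9, 74.7% identical over 1480 aligned bases, and NCED2 with NCED5, 74.3% over 1460 bases, both below the 95% over 150 bases used here to call a near-identical copy. At that level ABA2 and AAO3 each matched 1 gene, which overlaps them on the opposite strand, and no other member had a match.

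The bases just upstream are shown for the 3 genes that moved most under UV-B or ABA and for ABA3, which held the most matches to the motif searched. That motif, ACGTG, is the core of the ABA-responsive element and of the G-box (CACGTG), letters that bZIP factors such as HY5 and the ABF proteins bind. Each window holds the 300 bases before the annotated gene start, read 5′ to 3′ on the strand of the gene from the TAIR10.1 genome. They are chr5:26757403-26757702 (minus) for ABA1, chr3:4834016-4834315 (minus) for NCED3, chr2:11601427-11601726 (plus) for AAO3 and chr1:5659070-5659369 (plus) for ABA3. Capitals mark ACGTG on either strand, so that its reverse complement reads CACGT.
ABA1: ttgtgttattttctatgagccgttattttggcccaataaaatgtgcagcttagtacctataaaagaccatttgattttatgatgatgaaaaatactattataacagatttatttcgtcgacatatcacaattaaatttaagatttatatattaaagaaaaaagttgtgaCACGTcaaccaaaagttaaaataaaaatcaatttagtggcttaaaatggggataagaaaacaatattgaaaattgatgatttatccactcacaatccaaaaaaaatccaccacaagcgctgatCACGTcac
NCED3: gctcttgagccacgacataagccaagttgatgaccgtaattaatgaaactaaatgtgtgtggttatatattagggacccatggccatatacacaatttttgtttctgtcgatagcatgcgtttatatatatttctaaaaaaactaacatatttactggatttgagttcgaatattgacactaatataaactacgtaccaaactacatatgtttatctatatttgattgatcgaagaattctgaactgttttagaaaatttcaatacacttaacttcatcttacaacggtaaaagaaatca
AAO3: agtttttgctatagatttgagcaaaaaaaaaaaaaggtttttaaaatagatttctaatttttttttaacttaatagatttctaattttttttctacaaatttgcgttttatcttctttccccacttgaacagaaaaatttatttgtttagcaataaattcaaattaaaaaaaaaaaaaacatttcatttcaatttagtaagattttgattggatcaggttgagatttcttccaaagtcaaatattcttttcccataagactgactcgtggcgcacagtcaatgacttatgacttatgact
ABA3: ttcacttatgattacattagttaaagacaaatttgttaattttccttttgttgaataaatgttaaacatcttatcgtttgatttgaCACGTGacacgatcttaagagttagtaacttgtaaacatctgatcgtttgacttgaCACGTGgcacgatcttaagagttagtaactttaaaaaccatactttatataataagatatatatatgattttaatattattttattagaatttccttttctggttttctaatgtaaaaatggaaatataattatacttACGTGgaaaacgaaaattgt

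The ABA1 window held 2 matches, at -131 to -127 and at -8 to -4, counted back from -1 at the base before the annotated start. ABA3 held 3, of which 2 were full G-boxes at -214 to -209 and at -158 to -153, and NCED9 held a single G-box at -26 to -21. No match was found in the windows of NCED3, AAO3, ABA4, NCED2, NCED5 or ABA2. For comparison, 25.6% of the 27443 windows of the same length before protein-coding genes held ACGTG and 7.09% held CACGTG, counting overlapping matches of a palindrome on the 2 strands as 1 site. In 1000-base windows, where 54.4% of genes held ACGTG with a median of 1 site, NCED9 and ABA3 held 3 sites each, ABA1, NCED5 and ABA2 held 2, ABA4, NCED2 and NCED3 held 1, and AAO3 held 0. Of 9 well-known ABA response genes used to check the hormone treatment, 5 held ACGTG within 300 bases, against 3 of the 9 synthesis genes. For CACGTG the order was the other way, with 1 of the response genes and 2 of the synthesis genes.

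**Figure D1:**
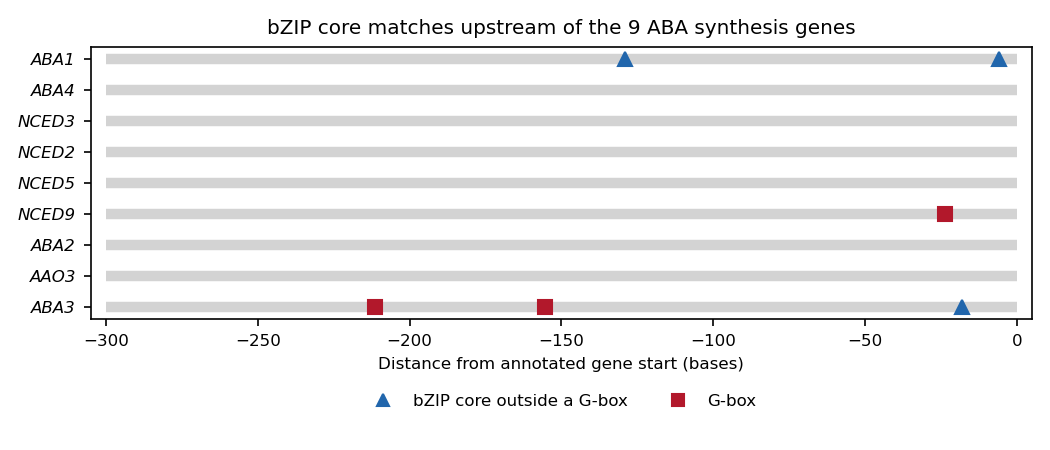
Matches to ACGTG (triangles) and to the G-box CACGTG (squares) in the 300 bases before each of the 9 genes, plotted by distance from the annotated gene start in bases, with a grey bar for each window. Matches occur upstream of 3 of the 9 genes: ABA1 with 2 sites, NCED9 with 1 G-box, and ABA3 with 2 G-boxes and 1 further site.

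Values are in TPM, a unit of transcript abundance scaled by transcript length and library total, from which read depth cannot be recovered. From 18557 to 19214 genes reached 1 TPM in a library. UVR8 itself was at 66.88 to 73.77 TPM in Col-0 under UV-B and at 20.78 to 23.61 TPM in uvr8, so its transcript was reduced but present in the mutant. The 5 leaf mesophyll markers were abundant in every library, with RBCS1A between 3539.09 and 5819.11 TPM. The 5 root markers did not exceed 0.81 TPM in any library and EXPA7, a root hair gene, was listed at 0 in 12 of 12, although the labels name seedlings without excluding roots. The 5 seed markers also stayed below 3 TPM, the highest being CRA1 at 2.86 TPM in replicate 2 of the ABA group. Of the 5 mesophyll markers, 3 rose and 0 fell with UV-B (4 and 0 after the rescaling described below), and 0 rose and 4 fell with ABA (0 and 0 after it). In uvr8 against Col-0 under UV-B, 0 were higher and 3 lower (0 and 5 after rescaling). Their summed levels were 7526.34 to 9026.92 TPM in white light, 9590.8 to 10916.29 under UV-B, 7712.3 to 8448.04 in uvr8 under UV-B and 6084.42 to 7315 with ABA. Their part in the results was not tested.

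ABA1 at the top and NCED2, NCED5 and NCED9 at the foot stood apart from the other members in every group. Between them, some neighbouring genes overlapped in each group. ABA1 was the most abundant in all 4 groups, and the lowest ABA1 value in each group lay above the highest value of any other member. In white light the order was ABA1 at 32.28 ± 2.6 TPM (SD, n = 3, as for all means below), then ABA4 at 13.84 ± 2.17, ABA2 at 12.96 ± 1.54, AAO3 at 9.65 ± 0.92, NCED3 at 7.26 ± 1 and ABA3 at 4.98 ± 0.54. Of these neighbours, ABA4 and ABA2 overlapped between libraries and the others did not. With ABA, NCED3 moved to the place below ABA1, although its libraries overlapped those of AAO3. NCED2, NCED5 and NCED9 stayed below 1 TPM in every library and closed the order in every group. Summed over the 9 genes, the level was 81.31 ± 3.86 TPM in white light, 173.23 ± 11.75 under UV-B, 90.74 ± 5.25 in uvr8 under UV-B and 197.86 ± 31.7 with ABA. ABA1 alone supplied 32.28 TPM of the white-light sum, 133.47 of the UV-B sum and 115.86 of the ABA sum. Under UV-B the means of ABA2, NCED3 and AAO3 were lower, so the sum does not describe the set.

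**Figure D2:**
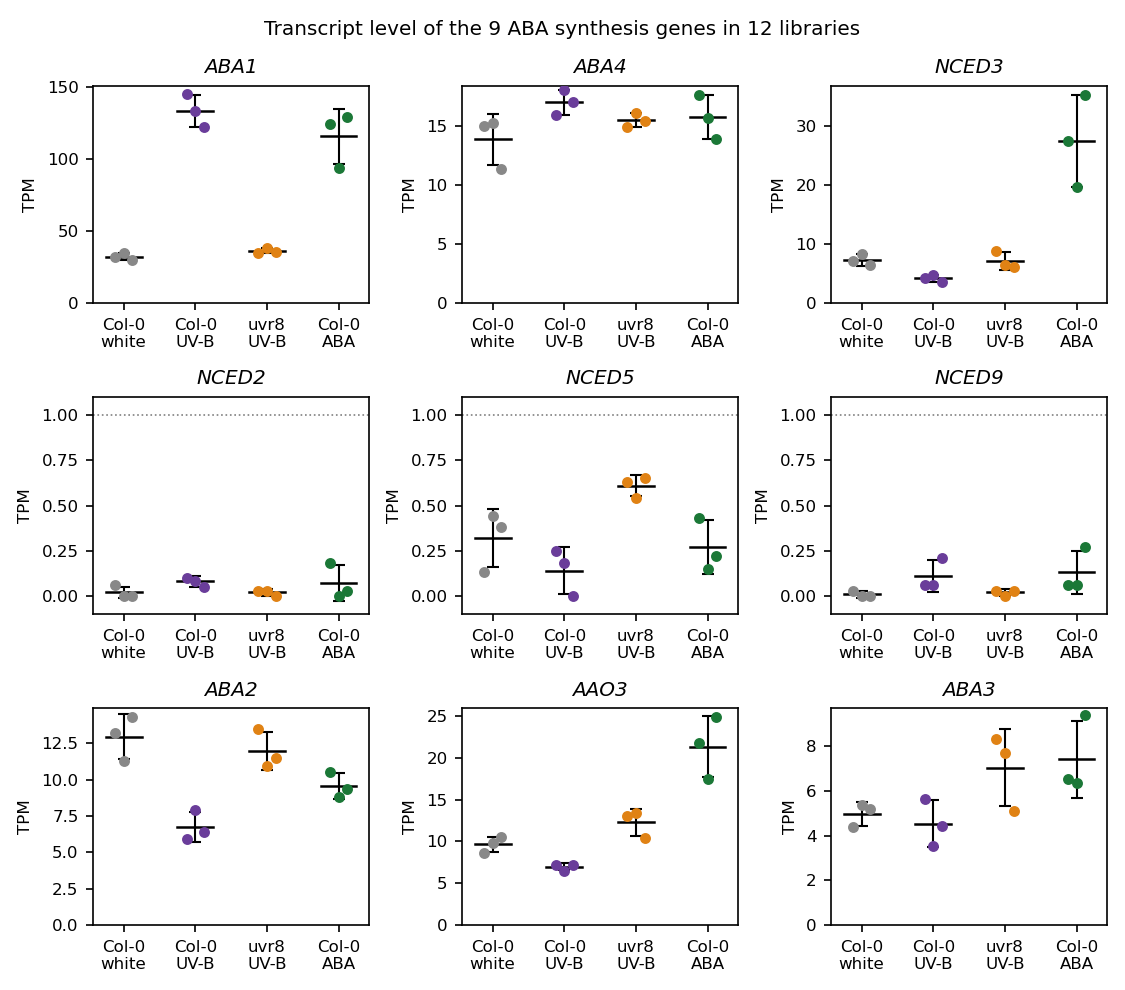
TPM of each of the 9 genes in the 12 libraries, 1 point per library, with a horizontal line at the mean and a bar of 1 SD either way; axes differ between genes, and the dotted line in the lower-level panels is 1 TPM. ABA1 is high in both Col-0 under UV-B and Col-0 with ABA, NCED3 and AAO3 are high with ABA alone, ABA2 is lowest under UV-B, and NCED2, NCED5 and NCED9 lie below 1 TPM throughout.

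Under UV-B, wild-type seedlings held more ABA1 transcript and less ABA2 transcript. NCED3 and AAO3 were also lower, in calls that some alternative fits did not keep. ABA1 rose 4.13-fold in mean TPM, while ABA2, NCED3 and AAO3 fell to 0.521, 0.578 and 0.724 of their white-light means. Changes were tested with limma on log2(TPM + 1), a scale that understates the change of low genes, with p adjusted over 19922 genes and a threshold of 0.05. Of the 9 genes, 6 passed the filter of at least 1 TPM in at least 3 libraries, and of these 1 rose and 3 fell. Among all tested genes 40.1% were called with UV-B, 12.3% higher and 27.8% lower, so the count alone is not read as a property of these genes. ABA1 alone also moved by at least 1 log2 unit, as 6.57% of all tested genes did. The median log2 change was -0.27 for the 6 genes and -0.15 for all tested genes. A trimmed-mean rescaling of the libraries moved the median of all genes to -0.01 and the calls from 2451 higher and 5543 lower to 3737 and 3461. After it 2 members were higher and 2 lower, since ABA4 gained a call and AAO3 lost its own. In bulk RNA such as this, fewer cells of a type and less RNA per cell cannot be told apart.

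In uvr8 under UV-B, ABA1 was lower than in Col-0 under UV-B and 4 of the 6 tested genes were higher, namely NCED3, ABA2, AAO3 and ABA3. This comparison shares the 3 Col-0 UV-B libraries with the one above. The background was 44%, with 32.8% of all tested genes higher and 11.1% lower, and 7.55% called with a difference of at least 1 log2 unit, as ABA1 was. The median log2 difference was 0.58 for the 6 genes and 0.19 for all. Rescaling brought the median of all genes to 0 and their calls from 6538 higher and 2218 lower to 3599 and 3841, and left 2 members higher, ABA2 and AAO3, and ABA1 lower. Against Col-0 in white light, uvr8 under UV-B differed in 0 of the 6 genes by limma at the adjusted threshold, with 1 of 6 below an unadjusted p of 0.05, where 5.11% of all tested genes were called, 3.83% higher and 1.28% lower, and 0.954% with a difference of at least 1 log2 unit. Those all-gene calls split into 763 higher and 255 lower, or 621 and 462 after rescaling.

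With ABA, ABA1, NCED3 and AAO3 rose 3.59-fold, 3.78-fold and 2.21-fold in mean TPM, and ABA2 fell to 0.739 of its white-light mean. Thus 3 of the 6 tested genes were higher and 1 lower, on a background of 54.6%, with 15.2% of all tested genes higher and 39.4% lower. The 3 that rose each changed by at least 1 log2 unit, as 11.3% of all tested genes did. The median log2 change was 0.77 for the 6 genes and -0.24 for all. Rescaling moved the median of all genes to -0.01 and their calls from 3030 higher and 7851 lower to 4806 and 4236. It made 5 members higher, adding ABA4 and ABA3, and ended the call of ABA2. In the ABA group, replicate 2 held the lowest value for 5 of the 6 genes and was also the library with 2.86 TPM of CRA1 and 2.57 TPM of CRC, storage protein genes that did not exceed 0.08 TPM in the other libraries. Without it the log2 changes were 1.94 for ABA1, 1.97 for NCED3 and 1.19 for AAO3.

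UV-B and ABA were also compared with each other in Col-0. Of the 6 genes 0 were higher and 4 lower under UV-B than with ABA (NCED3, ABA2, AAO3 and ABA3), on a background of 56%, with 32.1% of all tested genes higher and 23.9% lower. NCED3 and AAO3 differed by at least 1 log2 unit, as 15.8% of all tested genes did. ABA1 and ABA4 did not pass this test.

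**Figure D3:**
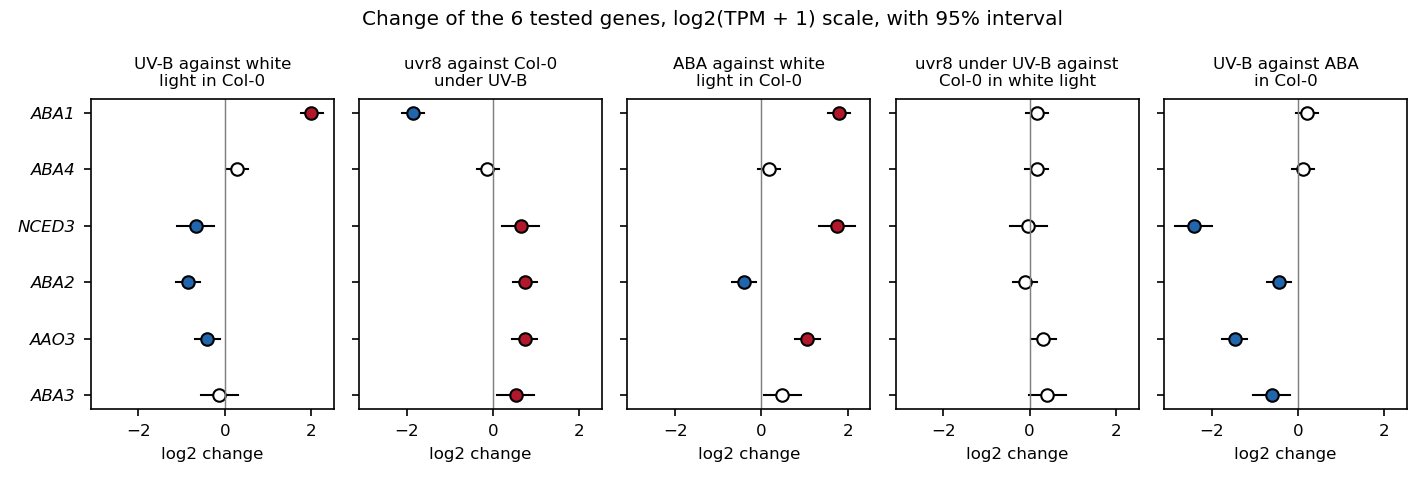
Change of the 6 tested genes in each of 5 comparisons on the log2(TPM + 1) scale, with the point at the estimate and the line spanning its 95% interval; red is higher and blue lower at an adjusted p under 0.05, and white did not pass. ABA1 is far from 0 in the first 3 comparisons but not between UV-B and ABA, NCED3 and AAO3 point down with UV-B and up with ABA, and no gene is called between uvr8 under UV-B and white-light Col-0.

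ABA1, the epoxidase at the head of the pathway, gave the clearest separation of groups. Its levels were 31.96, 35.03 and 29.86 TPM in white light, 145.07, 133.12 and 122.22 TPM under UV-B, 34.96, 38.19 and 35.53 TPM in uvr8 under UV-B, and 124.58, 93.88 and 129.11 TPM with ABA. Every library of Col-0 under UV-B or with ABA lay above every library of the other groups, while UV-B and ABA overlapped each other. The log2 change was 2.01 ± 0.12 (SE, as for all log2 changes below) with UV-B, with an adjusted p of 8.09e-08. With ABA it was 1.8 ± 0.12 with an adjusted p of 1.5e-07, from the same white-light libraries. In uvr8 ABA1 was 3.68-fold lower than in Col-0 under UV-B, a log2 difference of -1.85 ± 0.12 (adjusted p = 1.85e-07). These 3 calls were kept in each alternative fit. Between uvr8 under UV-B and white-light Col-0 the difference was 0.16, with a 95% interval of -0.09 to 0.42 and an adjusted p of 0.509. Between UV-B and ABA in Col-0 it was 0.21, with an interval of -0.04 to 0.47 and an adjusted p of 0.139, which does not show that the levels were equal. The 2 ACGTG matches in its window are those capitalised in the ABA1 sequence printed first.

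ABA4, required for neoxanthin, stayed between 11.34 and 18 TPM in all 12 libraries. Its levels were 14.94, 15.24 and 11.34 TPM in white light, 15.9, 18 and 17.01 TPM under UV-B, 14.91, 16.06 and 15.37 TPM in uvr8, and 17.62, 15.63 and 13.88 TPM with ABA. The UV-B libraries lay above the white-light libraries, the closest values being 15.9 and 15.24 TPM, and the uvr8 and ABA libraries overlapped both. The log2 change with UV-B was 0.29 ± 0.12 and did not pass (adjusted p = 0.0739), but after rescaling it was 0.45 and passed (adjusted p = 0.0181). With ABA it was 0.18, with an interval of -0.08 to 0.43, and 0.42 after rescaling, which passed with an adjusted p of 0.0194. In uvr8 against Col-0 under UV-B it was -0.13, with an interval of -0.38 to 0.13.

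NCED3 carried nearly all of the NCED signal. It held between 89.9% and 98.9% of the summed TPM of the 4 NCED members in each of the 12 libraries. Its levels were 7.07, 8.34 and 6.37 TPM in white light, 4.31, 4.76 and 3.52 TPM under UV-B, 8.78, 6.53 and 6.04 TPM in uvr8 under UV-B, and 27.43, 19.69 and 35.26 TPM with ABA. The UV-B libraries lay below and the ABA libraries above all others, and uvr8 overlapped white light. With ABA the log2 change was 1.75 ± 0.2, with an adjusted p of 1.53e-05. With UV-B it was -0.67 ± 0.2 and passed with an adjusted p of 0.0171. That call was lost without white-light replicate 2, at -0.58 with an adjusted p of 0.0695, or without UV-B replicate 3, at -0.57 with an adjusted p of 0.0673. In uvr8 NCED3 was 1.7-fold higher than in Col-0 under UV-B, a log2 difference of 0.64 ± 0.2 with an adjusted p of 0.02. This was 0.44 and did not pass after rescaling (adjusted p = 0.0699), and it was lost without UV-B replicate 3 (0.54, adjusted p = 0.077) or uvr8 replicate 1 (0.49, adjusted p = 0.0852). Between UV-B and ABA, NCED3 was 6.54-fold lower under UV-B, the widest gap of any of the 6 genes in the 5 comparisons, at -2.42 ± 0.2 on the log2 scale (adjusted p = 6.2e-07).

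Of the other NCED members, NCED9 is best known from seeds, and here all of them were at the foot of the range. NCED5 was highest in uvr8, at 0.63, 0.54 and 0.65 TPM, against 0.13, 0.44 and 0.38 TPM in white light, 0.25, 0.18 and 0 TPM under UV-B, and 0.43, 0.15 and 0.22 TPM with ABA. The uvr8 libraries did not overlap any other group. NCED5 did not pass the filter on low values, but with no filter, over 25539 genes, it was higher in uvr8 than in Col-0 under UV-B by 0.5 ± 0.12 log2 units (adjusted p = 0.00772). Against Col-0 in white light the same fit gave 0.29 ± 0.12, which did not pass (adjusted p = 0.232). NCED2 did not exceed 0.18 TPM and NCED9 did not exceed 0.27 TPM in any library, and both were listed at 0 in some. No ratio of mean TPM is given for these 3 genes, and at such levels the log2 differences of NCED5 depend on the 1 added to each TPM.

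ABA2, the xanthoxin dehydrogenase, was lowest under UV-B. Its levels were 13.23, 11.3 and 14.34 TPM in white light, 5.95, 7.93 and 6.38 TPM under UV-B, 13.47, 10.94 and 11.53 TPM in uvr8, and 10.55, 8.8 and 9.38 TPM with ABA. The UV-B libraries lay below those of all other groups, uvr8 overlapped white light, and the ABA libraries lay between. The log2 change with UV-B was -0.85 ± 0.13 (adjusted p = 0.00025), and -0.7 after rescaling (adjusted p = 0.0017). In uvr8 ABA2 was 1.77-fold higher than in Col-0 under UV-B, by 0.75 ± 0.13 log2 units with an adjusted p of 0.000582. With ABA the change was -0.4 ± 0.13 (adjusted p = 0.0198), but only -0.16 after rescaling (adjusted p = 0.36). The call with ABA was also lost without white-light replicate 1 (-0.38, adjusted p = 0.0546) or replicate 3 (-0.33, adjusted p = 0.0823), or without ABA replicate 2 (-0.34, adjusted p = 0.0651) or replicate 3 (-0.39, adjusted p = 0.051). ABA2 shares 470 exon bases with 2 genes on the opposite strand, AT1G52330 and the long non-coding RNA AT1G07803. The latter was listed between 0 and 18.37 TPM. The sources used here do not say whether counting used strand, so the ABA2 values are uncertain to that extent.

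AAO3, the abscisic aldehyde oxidase, rose with ABA and fell with UV-B, although rescaling ended the latter call. Its levels were 8.67, 9.78 and 10.49 TPM in white light, 7.22, 6.49 and 7.24 TPM under UV-B, 13.02, 13.38 and 10.45 TPM in uvr8, and 21.72, 17.52 and 24.85 TPM with ABA. The UV-B libraries were the lowest and the ABA libraries the highest, without overlap with the rest, and uvr8 overlapped white light. With ABA the log2 change was 1.06 ± 0.13 (adjusted p = 3.97e-05). With UV-B it was -0.41 ± 0.13 and passed (adjusted p = 0.0274), but it did not pass after rescaling, at -0.26 with an adjusted p of 0.0622. It also did not pass without white-light replicate 2 or 3 (-0.4 and -0.36, adjusted p = 0.074 and 0.0985) or without UV-B replicate 2 or 3 (-0.37 and -0.44, adjusted p = 0.0894 and 0.0516). In uvr8 AAO3 was 1.76-fold higher than in Col-0 under UV-B, by 0.73 ± 0.13 log2 units (adjusted p = 0.000927), and 0.52 after rescaling (adjusted p = 0.00162). The UV-B level was 3.06-fold below the ABA level, at -1.47 ± 0.13 on the log2 scale (adjusted p = 1.64e-06). AAO3 shares 749 exon bases with AT2G27160 on the opposite strand, which was listed at 0 in all 12 libraries. The unknown strand setting leaves the AAO3 values uncertain too, but unlike AT1G07803 beside ABA2 this neighbour had no listed level.

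ABA3, the sulfurase that activates the cofactor of AAO3, had the lowest level of the 6 tested genes in white light. Its levels were 4.37, 5.39 and 5.17 TPM in white light, 5.63, 3.53 and 4.42 TPM under UV-B, 8.32, 7.7 and 5.1 TPM in uvr8, and 6.52, 6.34 and 9.41 TPM with ABA. The ABA libraries lay above those of white light and of UV-B, and uvr8 overlapped every other group. In uvr8 ABA3 was higher than in Col-0 under UV-B by 0.53 ± 0.2 log2 units (adjusted p = 0.0444), but rescaling gave 0.34 (adjusted p = 0.135). That call was also lost when any of 8 libraries was left out (white-light replicates 1 to 3, UV-B replicates 2 and 3, uvr8 replicates 1 and 2, ABA replicate 1), with differences of 0.4 to 0.53 and adjusted p-values of 0.0503 to 0.167. With ABA the change was 0.48 ± 0.2 and just missed the threshold (adjusted p = 0.0565), but it passed after rescaling, at 0.7 with an adjusted p of 0.00477. At 0.48 it also passed without UV-B replicate 1 (adjusted p = 0.0474), UV-B replicate 2 (adjusted p = 0.0496) or uvr8 replicate 3 (adjusted p = 0.031). With UV-B it was -0.13, with an interval of -0.56 to 0.3, and 0.01 after rescaling. ABA3 was lower under UV-B than with ABA by -0.61 ± 0.2 (adjusted p = 0.0198), a call lost without UV-B replicate 2 (-0.47, adjusted p = 0.0827) or ABA replicate 3 (-0.44, adjusted p = 0.0899). Its printed window is the single one of the 4 shown with full G-boxes.

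NCED3, ABA2 and AAO3 proteins are known from vascular parenchyma of Arabidopsis leaves, and their levels are set here beside markers of phloem and vascular cells. Of 4 such markers 2 fell and 0 rose with UV-B, while APL and AHA3 did not pass (adjusted p = 0.555 and 0.365). SUC2, the sucrose carrier of companion cells, was at 56.05, 50.54 and 46.97 TPM in white light and at 15.98, 22.59 and 19.55 TPM under UV-B, a log2 change of -1.37 ± 0.15 (adjusted p = 1.72e-05). HB-8, a factor of the procambium, fell from 28.43 to 17.77 TPM (-0.65 ± 0.11, adjusted p = 8e-04). In uvr8 both were higher than in Col-0 under UV-B, with SUC2 at 61.07 and HB-8 at 27.56 TPM. With ABA, where NCED3 and AAO3 rose, HB-8 fell to 17.39 TPM (-0.69 ± 0.11, adjusted p = 0.000355), AHA3 rose from 59.13 to 77.05 TPM (0.36 ± 0.12, adjusted p = 0.0195), and SUC2 and APL did not pass. None of the 4 markers was listed at 0, and their summed level ran from 152.75 to 165.93 TPM in white light, from 108.72 to 110.5 under UV-B, from 151.91 to 178.17 in uvr8 and from 141.73 to 189.18 with ABA. Of 4 guard cell markers 0 rose and 3 fell with ABA, or 1 and 3 after rescaling. MYB60 fell from 14.62 to 2.73 TPM. KAT1 went the other way, from 18.23 to 28.23 TPM, and did not pass before rescaling (0.57 ± 0.24, adjusted p = 0.0648). The summed level of the 4 ran from 52.24 to 57.06 TPM in white light and from 31.51 to 48.92 TPM with ABA. The part of either cell type in the results above was not tested.

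Genes of carotenoid supply and the xanthophyll cycle rose with UV-B. The list runs from phytoene synthase to the xanthophyll cycle and takes in the lutein branch, so not all lie upstream of ABA1. Of its 13 genes, 12 rose and 0 fell (13 and 0 after rescaling), with a median log2 change of 0.76. This and the list counts below stand beside the shares of all tested genes, which were 12.3% higher and 27.8% lower with UV-B, 32.8% and 11.1% in uvr8, and 15.2% and 39.4% with ABA. BCH1, which makes zeaxanthin, the substrate of ABA1, went from 29.58, 32.45 and 28.23 TPM in white light to 224.12, 206.39 and 199.76 TPM under UV-B, with 29.9, 32.73 and 26.42 TPM in uvr8 and 25.34, 25.41 and 27.89 TPM with ABA. The UV-B libraries stood alone, and the change was 2.76 ± 0.09 (adjusted p = 4.8e-10). Its homologue BCH2 rose from 6.04 to 33.82 TPM (2.32 ± 0.18, adjusted p = 1.47e-06) and ZDS, a desaturase of the carotene pathway, from 45.93 to 111.63 TPM (1.26 ± 0.12, adjusted p = 5.38e-06). In uvr8 against Col-0 under UV-B, 0 of 13 were higher and 12 lower. With ABA 2 rose and 8 fell, or 3 and 3 after rescaling. The 2 that rose were BCH2, to 16.82 TPM (1.31 ± 0.18, adjusted p = 9.56e-05), and LUT2, the lycopene epsilon-cyclase, from 28.07 to 52.47 TPM (0.87 ± 0.09, adjusted p = 1.1e-05). BCH2 was also the single gene of the 13 that was higher in uvr8 under UV-B than in Col-0 in white light, at 11.32 TPM (0.82 ± 0.18, adjusted p = 0.0263).

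Relatives of NCED3 and AAO3 that are not among the 9 genes had patterns of their own. Of 5 other carotenoid dioxygenases 2 passed the filter. NCED6, a further NCED gene among the 5, was listed at 0 in every library. CCD1, which cleaves carotenoids to volatile products, rose with UV-B from 71.36 to 140.66 TPM (0.97 ± 0.11, adjusted p = 2.32e-05), and CCD4, a plastid dioxygenase of carotenoid turnover, fell from 5.91 to 2.23 TPM (-1.09 ± 0.17, adjusted p = 0.00032). CCD4 also fell with ABA, to 2.77 TPM. Of 3 other aldehyde oxidases 2 passed the filter, and AAO2 rose with UV-B from 10.7 to 24.93 TPM (1.15 ± 0.16, adjusted p = 0.00014) and fell with ABA to 4.06 TPM (-1.23 ± 0.16, adjusted p = 4.9e-05). The changes of AAO2 thus had the opposite signs to those of AAO3 in both treatments. AAO1 passed in neither comparison.

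The cofactor that ABA3 modifies is made by the CNX enzymes. Of 6 CNX genes, 0 rose and 3 fell with UV-B, or 0 and 1 after rescaling, where 27.8% of all tested genes fell. In uvr8 against Col-0 under UV-B 4 were higher and 0 lower (3 and 0 after rescaling), where 32.8% of all tested genes were higher. CNX6, a subunit of molybdopterin synthase, went from 38.25 to 27.44 TPM with UV-B (-0.47 ± 0.07, adjusted p = 0.000158). With ABA 1 rose and 2 fell, or 2 and 2 after rescaling, with CNX1, the enzyme that inserts molybdenum, going from 50.81 to 29.22 TPM (-0.78 ± 0.09, adjusted p = 3.05e-05).

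With ABA, all 4 CYP707A genes, which encode the hydroxylases that begin ABA breakdown, rose by more than any synthesis gene. They summed to 28.75 ± 1.53 TPM in white light, 46.14 ± 4.37 under UV-B, 31.9 ± 1.47 in uvr8 and 270.93 ± 28.92 with ABA. With ABA CYP707A1 rose from 12.13 to 150.38 TPM (3.53 ± 0.11, adjusted p = 1.02e-09), CYP707A4 from 1.97 to 33.41 TPM (3.53 ± 0.15, adjusted p = 4.94e-09) and CYP707A3 from 11.39 to 65.73 TPM (2.42 ± 0.12, adjusted p = 2.39e-08). CYP707A2 was at 3.82, 3.06 and 2.91 TPM in white light, 22.56, 20.22 and 20.31 TPM under UV-B, 2.54, 3.82 and 3.76 TPM in uvr8 and 20.3, 22.71 and 21.22 TPM with ABA. Its UV-B and ABA libraries overlapped each other and lay above the rest. Over 8 genes of ABA inactivation and conjugation, 2 rose and 3 fell with UV-B (2 and 2 after rescaling), 3 were higher and 2 lower in uvr8, and 5 rose and 1 fell with ABA. With UV-B CYP707A4 rose from 1.97 to 6.22 TPM (1.28 ± 0.15, adjusted p = 3.46e-05). BGLU18, a glucosidase that frees ABA from its glucose ester, fell with UV-B from 495.6 to 260.23 TPM (-0.92 ± 0.17, adjusted p = 0.00132). In uvr8 under UV-B BGLU18 was at 322.46 TPM, which did not pass against Col-0 under UV-B (adjusted p = 0.195) or in white light (adjusted p = 0.0638).

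Transport and response genes complete the pathway. Of 6 ABA transporter genes 5 passed the filter, and of these 0 rose and 4 fell with UV-B, or 0 and 2 after rescaling, while 3 rose and 2 fell with ABA, or 3 and 1 after rescaling. Among all tested genes 27.8% fell with UV-B, and 15.2% rose and 39.4% fell with ABA. ABCG25, an ABA exporter, rose with ABA from 7.11 to 23.91 TPM (1.62 ± 0.08, adjusted p = 2.74e-08), and NPF4.6, an importer, fell with UV-B from 43.75 to 27.51 TPM (-0.65 ± 0.12, adjusted p = 0.00119). All 9 ABA response genes rose with ABA, with a median log2 change of 4.3, and LEA7, HAI1 and RAB18 reached 509.97, 363.6 and 593.19 TPM. With UV-B 1 of these 9 rose and 4 fell, or 1 and 1 after rescaling. The median was -0.28, beside -0.15 over all tested genes.

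**Figure D4:**
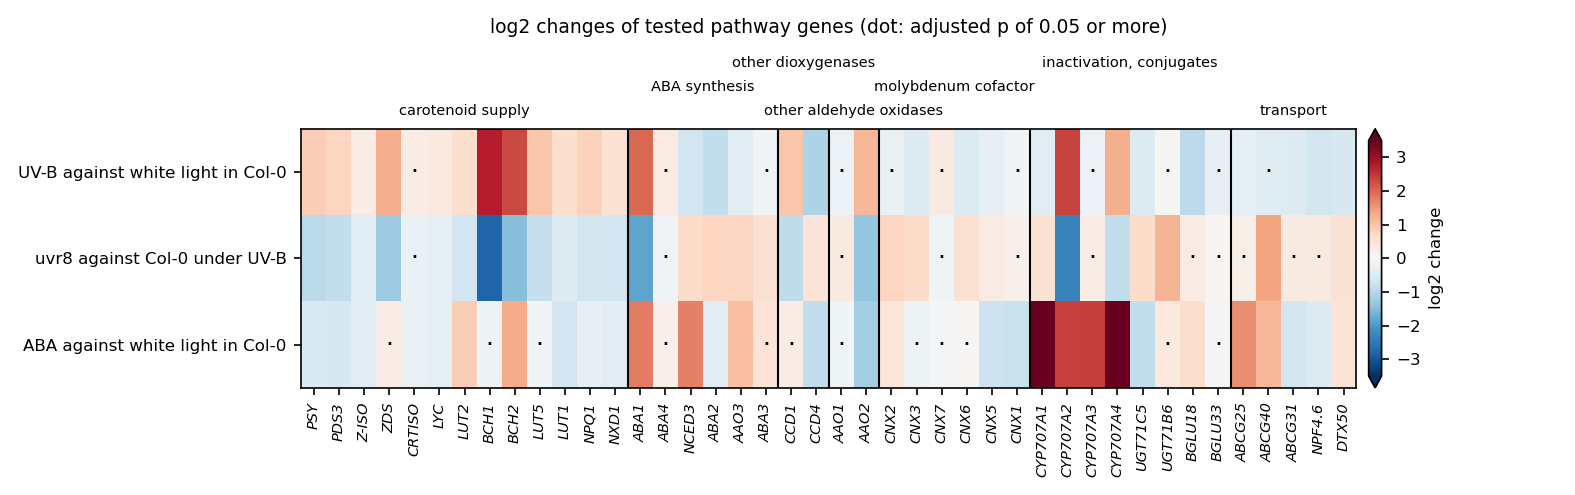
Colour map of log2 changes on the log2(TPM + 1) scale for the tested genes of each pathway step, with 3 comparisons as rows, genes as columns and red for higher; a dot marks an adjusted p of 0.05 or more. Genes of carotenoid supply and the xanthophyll cycle are red with UV-B and blue in uvr8, as ABA1 is, whereas with ABA the strongest red lies in the CYP707A genes, NCED3 and ABA1.

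Among the other 19921 tested genes, those whose 4 group means ran closest to each of the 3 most changed members were sought by the root mean square difference of centred log2(TPM + 1) means. NTT1, a plastid ATP/ADP carrier, was nearest to ABA1 at 0.05 log2 units, with 56.13 TPM in white light, 213.85 under UV-B, 61.65 in uvr8 and 181.26 with ABA. PES1, a phytyl ester synthase of plastids, followed at 0.1 and AT5G57785 at 0.11. Nearest to NCED3 were AT4G23880 at 0.01, AT1G66830 at 0.04 and AT2G41480 at 0.05, of which AT4G23880 was at 3.69, 1.89, 3.58 and 14.39 TPM in the same order of groups. Nearest to AAO3 were ETFBETA, a subunit of the mitochondrial electron transfer flavoprotein, at 0.03, AAE1, an acyl-activating enzyme, at 0.03, and ADF5, an actin-depolymerising factor, at 0.04. ETFBETA was at 22.38, 16.12, 28.41 and 48.76 TPM. With 4 group means to match and so many genes to choose from, near matches are a description of these libraries.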

How the data were processed

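Libraries were prepared with a TruSeq kit and sequenced as paired reads, per the labels' protocols, and the submitters' processing notes name TAIR10. The deposited tables hold 1 TPM value per gene and library, while the authors' aligner, counting tool and strand setting were not given in the sources used here. TPM was used as deposited; library totals ran from 998197.5 to 998680.8. Intervals based on read counts cannot be given.

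The 19922 genes that reached 1 TPM in 3 or more of the 12 libraries were tested with limma 3.58.1 in R 4.3.3 on log2(TPM + 1), with a mean-variance trend, 4 group means and Benjamini-Hochberg adjustment at 0.05. The fit was tested on simulated data. Alternatives were trimmed-mean (TMM-style) scaling (30% of log ratios, 5% of mean levels), no filter, a pseudocount of 0.1, no trend, the replicate number as a block, and each library left out.

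Genes were named by rule: all 9 members, UVR8, at most the 3 largest called changes per list and comparison, and the 3 nearest patterns of each member changed by at least 1 log2 unit. Outside this rule, RBCS1A, EXPA7, CRA1, CRC, APL, KAT1, AAO1 and NCED6 were named after their values were seen. The members and lists were chosen with earlier results of these data known. Of the 32833 loci 32548 matched the annotation by name, as did 83 of 83 list genes. Upstream sequences were read from the RefSeq TAIR10.1 genome with Biopython 1.88, exons were compared with BLAST+ 2.17.0, and summaries and plots used Python 3.11.15, pandas 2.3.3 and matplotlib 3.10.9.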

Additional observations from a re-analysis of the deposited data

How the results depend on the processing

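Of 150 values of single members recomputed under other settings, 140 kept their direction and side of the threshold, as did 331 of 360 with a library left out. Direction could not change when the library left out lay outside the 2 groups compared. Nor could it with no filter, no trend or the replicate block. Agreement in direction was therefore partly fixed in advance. Rescaling left 3 members called in uvr8 against Col-0 under UV-B, and turned ABA3 with UV-B to 0.01. With a library left out, ABA3 with UV-B ran from -0.27 to 0.01, turning positive without UV-B replicate 2, and NCED3 in uvr8 against white light from -0.18 to 0.06, positive without white-light replicate 2 (0.06), uvr8 replicate 2 (0.01) or uvr8 replicate 3 (0.06). The cause was not tested. Leaving out a library gave 2 to 4 called members with UV-B, 3 to 5 in uvr8, 3 to 5 with ABA, 0 in uvr8 against white light and 3 to 4 between UV-B and ABA; the low counts came without white-light replicate 2 or UV-B replicate 3 (2, with UV-B) and without UV-B replicate 3 or uvr8 replicate 1 (3, in uvr8). Over all genes, uvr8 against white light gave 426 to 1157 calls against 1018, with 426, 615 and 632 without white-light replicates 1, 2 and 3, and 575 and 551 without uvr8 replicates 1 and 2. Deviations of same-numbered libraries from their group means correlated at -0.13 to 0.26, with 7 of 18 correlations above 0.1. Differently numbered libraries were not compared in this way, so these values do not settle whether the numbers mark pairs. The main fit did not take them as pairs. With the replicate block the called members numbered 4, 4, 4, 0 and 4 over the 5 comparisons, ABA3 in uvr8 being lost (adjusted p = 0.0673), as it was with no filter (adjusted p = 0.0692). TPM keeps no depth, so what sequencing depth limits is unknown.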
